A study of Mus musculus with 24 samples.

Results

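In the arm of the reprogramming experiment that received no interferon γ (IFNγ), the X-GFP–high cells of day 7 were compared with the X-GFP–medium cells of the same day, which is the second step of reporter reactivation. All genes with a mean normalized count above 10 over the 4 libraries of these 2 populations entered the comparison, which kept 15516 of the 37315 genes in the table and used 4 of the 24 libraries. The cells came from PaX, a female mouse embryonic stem cell (ESC) line that is a Mus musculus/Mus castaneus hybrid. Its musculus X (X mus) carries a GFP reporter in the Hprt gene and is the chromosome that is preferentially silenced, owing to a truncation of Tsix. Every library used here therefore shares these alleles, together with a doxycycline-inducible cMyc-Klf4-Oct4-Sox2 (MKOS) cassette and a Nanog promoter-RFP reporter. Neural progenitor cells (NPCs) made from this line, with X mus silent, were reprogrammed on irradiated male mouse embryonic fibroblasts in serum and LIF medium with doxycycline and ascorbic acid, and on day 7 cells positive for the surface antigen SSEA1 were sorted by X-GFP level. The IFNγ arm, used below as a second, separately sampled instance of the same step, differed by IFNγ at 10 ng/ml on days 0 to 5. All cells derive from 1 engineered line. The study's methods call the 2 libraries of a population independent replicates, while the labels do not say whether they came from separate reprogramming rounds. P-values therefore measure the spread between these libraries.

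X-inactivation silences 1 X chromosome in each female cell: the noncoding RNA Xist coats the chromosome and recruits silencing factors, and Tsix, transcribed across Xist in the antisense direction, opposes it. When differentiated cells are returned to naive pluripotency, Xist is switched off late and the silent X is reactivated gene by gene. Naive pluripotency is also the state in which many genes of the germline, which are kept off in somatic cells by promoter methylation and by a MAX/MGA-containing Polycomb complex, become expressed.

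The 4 libraries were of similar depth, with 26982896 to 29875843 reads on genes, and the replicates of each population differed by more than sampling noise (chi-square per degree of freedom 3.16 for X-GFP–medium and 4.39 for X-GFP–high). Mitochondrial transcripts took 18.5% ± 0.0431 (SD, n = 2) of the normalized counts in X-GFP–medium against 15.1% ± 0.0516 (SD, n = 2) in X-GFP–high, most of it the mitochondrial ribosomal RNA mt-Rnr2. The 4 Y-linked genes of the male feeders (Ddx3y, Uty, Kdm5d, Eif2s3y) summed to between 1.03 and 4.27 normalized counts in each of the 4 libraries, against 218 and 252 in the day 2 control libraries. These are bulk libraries, so fewer cells expressing a gene and less RNA per expressing cell cannot be told apart in any result below.

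The step between the populations was broad and even in both directions. Of 15516 genes, 4871 were higher in X-GFP–high (31.4%) and 5068 were lower (32.7%) by limma at an adjusted p below 0.1. The median Log2FC over all genes was 0.00, and the 5th and 95th percentiles were -1.07 and 1.02. With 64.1% of genes called, a 2-fold limit was added after these counts had been seen: 802 genes were called and at least 2-fold higher (5.17%), and 951 were called and at least 2-fold lower (6.13%). Counts of gene groups are read against these percentages. The 25 gene lists hold 573 entries, of which 496 had a mean above 10, and 15 of the called entries had a mean of at most 10 in the lower population, so that they entered only through the higher one. Their counts are given without those entries where they held any. Some genes are on several lists.

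**Figure D1:**
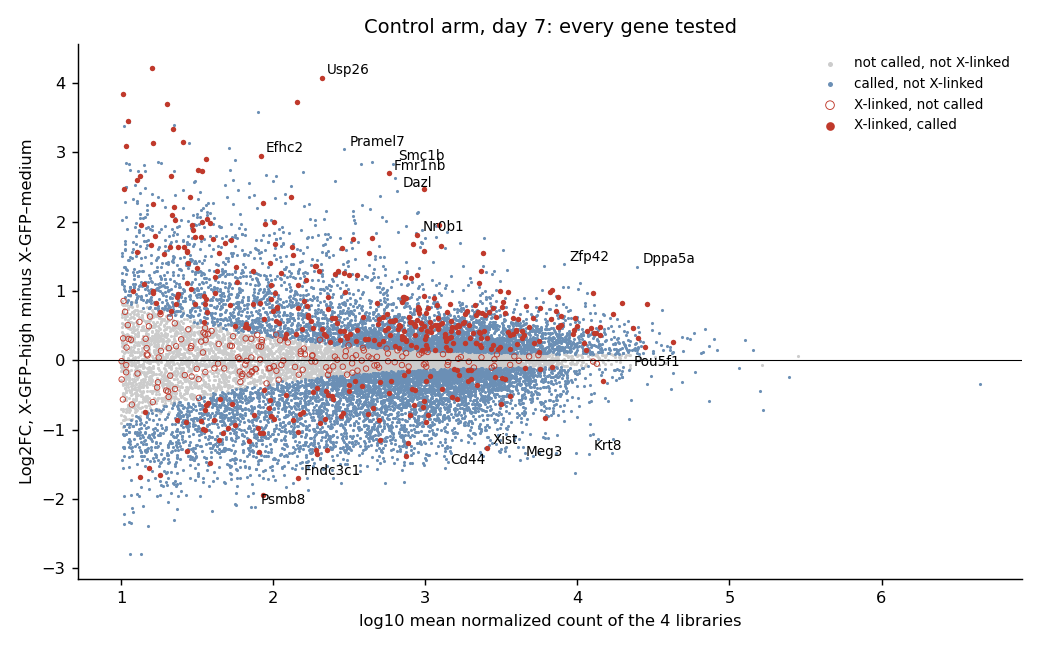
Each point is 1 of the 15516 genes, placed by the log10 of its mean normalized count over the 4 control libraries and by its Log2FC (X-GFP–high minus X-GFP–medium, on the log2(normalized count + 1) scale). X-linked genes (red) lie more often above 0 than below: 322 were called higher and 99 lower. The labeled genes are described in the text.

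Among genes with a mean of at least 100 in 1 of the populations, the 8 largest increases were in 3 X-linked and 5 autosomal genes. Usp26, a testis-expressed deubiquitinase gene on the X (chrX:51753959-51801233, mm10, minus strand), was measured at normalized counts of 25.7 and 19.6 in X-GFP–medium against 385 and 401 in X-GFP–high (Log2FC 4.07 ± 0.18 (SE), adjusted p = 8.9e-11), a 17.3-fold difference in the means. The X-linked gene 1700013H16Rik stood at 20.8 and 17.6 in X-GFP–medium against 276 and 255 in X-GFP–high (Log2FC 3.73 ± 0.19 (SE), adjusted p = 4.3e-10). Efhc2, an X-linked gene for an EF-hand protein, stood at 18.8 and 17.6 in X-GFP–medium against 145 and 148 in X-GFP–high (Log2FC 2.95 ± 0.21 (SE), adjusted p = 1.4e-08). In these X-linked genes the populations lay far apart and the replicates close together. On the autosomes, the antisense gene Gm20548 stood at 16.8 and 7.23 in X-GFP–medium against 117 and 176 in X-GFP–high (Log2FC 3.58 ± 0.32 (SE), adjusted p = 1.7e-07). Pramel7, which encodes a PRAME-family protein of the early embryo, stood at 70.2 and 54.7 in X-GFP–medium against 488 and 551 in X-GFP–high (Log2FC 3.04 ± 0.14 (SE), adjusted p = 2.2e-10). Its ESC mean was only 17.0. Sohlh2, a transcription factor gene of germ cell differentiation, stood at 107 and 105 in X-GFP–medium against 692 and 875 in X-GFP–high (Log2FC 2.86 ± 0.12 (SE), adjusted p = 7.3e-11). Iqca stood at 12.8 and 12.4 in X-GFP–medium against 101 and 99.3 in X-GFP–high (Log2FC 2.89 ± 0.24 (SE), adjusted p = 8.7e-08). Zfp600, a KRAB zinc-finger gene in a cluster of near-identical copies on chromosome 4, stood at 93.9 and 90.9 in X-GFP–medium against 617 and 714 in X-GFP–high (Log2FC 2.83 ± 0.12 (SE), adjusted p = 6.5e-11). Reads of Zfp600 and Pramel7 could be shared with paralogs and those of Gm20548 with the opposite strand, since the strand setting of the counting was not given in the sources used here.

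The largest decreases were smaller in fold than the largest increases. Psmb8, an immunoproteasome subunit gene (chr17:34197721-34201454, mm10), stood at 134 and 115 in X-GFP–medium against 25.8 and 29.9 in X-GFP–high (Log2FC -2.12 ± 0.21 (SE), adjusted p = 3.8e-07). Capn8, a calpain gene of gut epithelium, stood at 98.8 and 134 in X-GFP–medium against 21.7 and 31.0 in X-GFP–high (Log2FC -2.11 ± 0.24 (SE), adjusted p = 1.7e-06). Scn9a, a voltage-gated sodium channel gene, stood at 97.8 and 119 in X-GFP–medium against 23.7 and 31.0 in X-GFP–high (Log2FC -1.95 ± 0.22 (SE), adjusted p = 1.9e-06). Each of these genes was at or near 0 in ESCs, with means of 1.95, 0 and 8.70. Foxa2, an endoderm transcription factor gene, fell by 1.92 on the log2 scale (adjusted p = 2.0e-06), Rab27b, a vesicle traffic gene, by 1.88 (adjusted p = 2.7e-08), Cldn11, a tight junction gene, by 1.82 (adjusted p = 1.3e-06) and Arg1, the arginase gene, by 1.79 (adjusted p = 2.8e-05).

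X-linked genes took a larger share of the transcriptome in X-GFP–high. Their share of all normalized counts was 2.64% ± 0.0296 (SD, n = 2) in X-GFP–medium against 3.45% ± 0.0499 (SD, n = 2) in X-GFP–high, a ratio of 1.31, and leaving the mitochondrial genes out of the denominator gave 1.25. The 2 populations did not overlap, although 2 libraries against 2 cannot reach an exact two-sided permutation p below 0.333. Of 588 tested X-linked genes, 322 (54.8%) were higher and 99 (16.8%) were lower, with a median Log2FC of 0.32. Among 14719 autosomal genes 30.5% were higher and 33.5% lower, and the share of genes that were higher ran from 26.3% to 36.4% over the individual autosomes, with medians between -0.10 and 0.05. The X chromosome thus lay outside the range of every autosome on both measures. Hprt, whose locus on X mus carries the sorted reporter (chrX:52988137-53021659, plus strand), stood at 680.0 and 636 in X-GFP–medium against 1097 and 1139 in X-GFP–high (Log2FC 0.76 ± 0.07 (SE), adjusted p = 3.4e-07), and its direction is set by the sort.

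Allele-specific reads showed the increase on X mus, the chromosome whose reporter was sorted. The deposited X mus proportion, the share of allele-informative reads that came from the musculus allele, was given as 1 pooled value per gene and population, so it has no replicate error here and the number of reads behind it is unknown. Over 315 X-linked genes other than Xist, which the authors had selected for expression from X cas in all populations, the median proportion was 0.001 in NPCs, 0.009 in X-GFP–negative cells, 0.110 in X-GFP–medium, 0.335 in X-GFP–high and 0.480 in ESCs. In X-GFP–high it exceeded the value of X-GFP–medium for 308 genes, lower for 3 and equal for 4, with a median difference of 0.190 and quartiles of 0.139 and 0.229. Proportions of at least 0.4 were found for 8 genes in X-GFP–medium, 85 in X-GFP–high and 254 in ESCs, and only 23 genes lay above their ESC value in X-GFP–high. X-GFP–high cells as a population were below the ESC proportion at most of these genes.

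**Figure D2:**
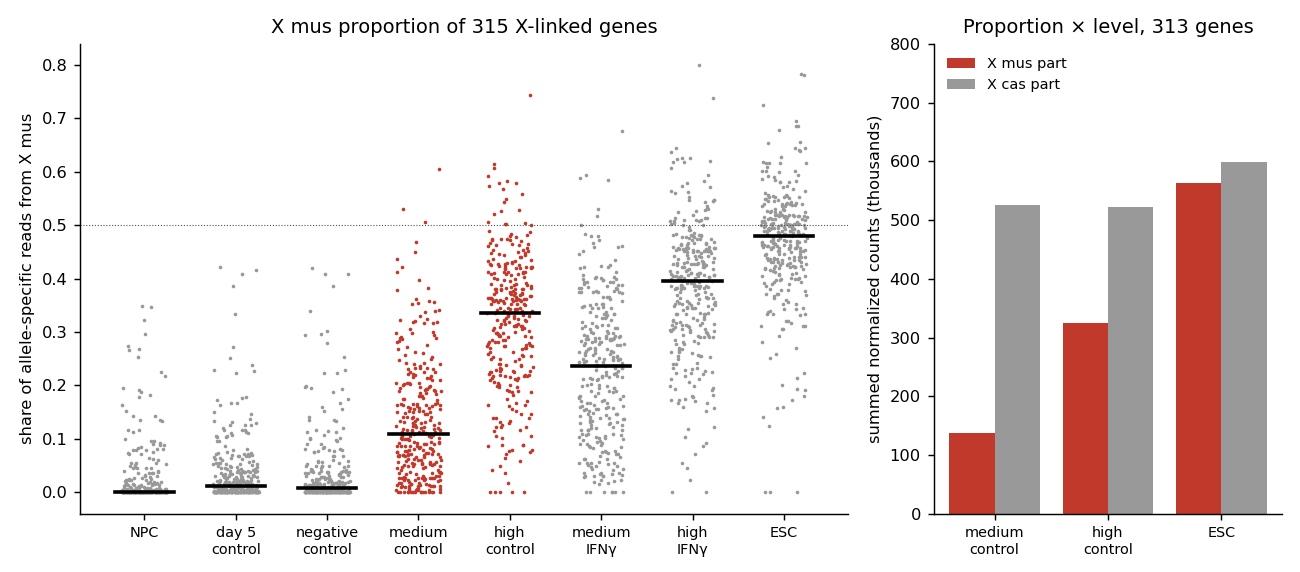
Left, the X mus proportion (share of allele-specific reads from X mus) of 315 X-linked genes in each population, 1 point per gene, with the median as a bar and 0.5 dotted; medians are 0.110 in control X-GFP–medium, 0.335 in control X-GFP–high and 0.480 in ESCs. Right, the proportion multiplied by the gene's mean normalized count and summed over 313 genes: the X mus part is 137664 in X-GFP–medium against 324492 in X-GFP–high, while the X cas part is 526036 and 522357.

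Multiplying each gene's proportion by its mean normalized count splits its level into an X mus part and a castaneus (X cas) part, if the informative reads represent all reads of the gene. Summed over the 313 of these genes with a mean above 10, the X mus part was 137664 normalized counts in X-GFP–medium against 324492 in X-GFP–high, a ratio of 2.36, while the X cas part was 526036 and 522357, a ratio of 0.993. In ESCs the X mus and X cas parts were 562454 and 598546. Gene by gene the X mus part was higher in X-GFP–high for 308 genes, with a median Log2FC of 1.8, and the X cas part was higher for 136 and lower for 177, with a median of -0.06. These splits rest on pooled proportions and have no test.

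The proportion and the total level did not always move together. Of the 313 genes, 194 were called higher in total level, and their median X mus proportion went from 0.147 to 0.362. Another 52 were called lower, and their median proportion went from 0.031 to 0.179. Genes with a proportion below 0.1 in X-GFP–high were few, and most had a falling total: of 18 such genes that were tested, 13 were called lower and 1 higher, whereas of 85 with at least 0.4, 5 were lower and 66 higher. The total of a gene includes its X mus part, and both measures come from the same cells. This contrast was therefore partly set by how the genes were grouped, and it was not tested. Tspan7, a tetraspanin gene, had a proportion of 0.010 in X-GFP–medium, 0.042 in X-GFP–high and 0.446 in ESCs with a total Log2FC of -1.19, and Efnb1, an ephrin ligand gene, had 0.009, 0.050 and 0.365 with a total Log2FC of -1.15. In both, nearly all allele-specific reads of X-GFP–high cells still came from X cas.

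The largest gains in proportion were found in Smim10l2a (0.073 to 0.578), B630019K06Rik (0 to 0.5), Hnrnph2, an RNA-binding protein gene (0.071 to 0.568), and Lrch2 (0.094 to 0.558). Proportions were lower in X-GFP–high for Dnase1l1 (0.159 to 0.000), Apln, the gene of the peptide hormone apelin (0.362 to 0.344), and Upf3b, a nonsense-mediated decay gene (0.317 to 0.307). The genes at the extremes were partly of low level: Dnase1l1 had total normalized counts of 53.4 and 51.6 in X-GFP–medium against 33.0 and 24.6 in X-GFP–high, B630019K06Rik had 20.8 and 24.8 in X-GFP–medium against 19.6 and 13.9 in X-GFP–high and Apln had 36.6 and 23.7 in X-GFP–medium against 41.2 and 37.4 in X-GFP–high. Smim10l2a and Lrch2 had means of only 73.9 and 104 over the 4 libraries. Hnrnph2 had a mean of 2427, but how many of its reads were allele-informative is unknown. In the IFNγ arm Hnrnph2 went down, from 0.460 in X-GFP–medium to 0.229 in X-GFP–high, while Smim10l2a, B630019K06Rik and Lrch2 rose. Among widely used X-linked genes in the control arm, Pgk1, a glycolysis gene, went from 0.225 to 0.473, and Huwe1, a ubiquitin ligase gene, from 0.101 to 0.357. Hprt went from 0.198 to 0.362, with 0.557 in ESCs.

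Proportions are given by distance from Xist, since silencing spreads from there. The 64 genes within 20 Mb of Xist had a median proportion of 0.082 in X-GFP–medium against 0.298 in X-GFP–high, the 130 genes at 20 to 50 Mb had 0.087 and 0.328, and the 121 genes beyond 50 Mb had 0.172 and 0.362. The median gains were 0.194, 0.200 and 0.174. In both populations the median was highest beyond 50 Mb. These values describe genes of the same pooled populations and were not tested.

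Genes that escape X-inactivation, which are expressed from the silent X as well, had smaller gains. The 26 genes with a proportion above 0.1 in NPCs had a median of 0.321 in X-GFP–medium against 0.442 in X-GFP–high, a median gain of 0.122, and the other 289 went from 0.101 to 0.323, a gain of 0.193. In ESCs the medians were 0.499 and 0.472, so the 26 genes started closer to their ESC median. Kdm6a, a histone H3K27 demethylase gene and a known escapee, was at 0.469 and 0.474, and its total level did not pass the test (5429.8 and 5366 in X-GFP–medium against 5782 and 5580.4 in X-GFP–high, adjusted p = 0.2). Of 12 listed escapees, 9 (75%, beside 54.8% of all tested X-linked genes) were higher and 1 lower, none by 2-fold. Their median Log2FC was 0.28, beside 0.32 for all tested X-linked genes. The largest increase was in Usp9x, a deubiquitinase gene (20476 and 21326 in X-GFP–medium against 36728 and 36578 in X-GFP–high, Log2FC 0.81, adjusted p = 8.1e-10), which stood at a proportion of only 0.090 in NPCs. Eif1ax, a translation initiation factor gene, rose as well (Log2FC 0.78, adjusted p = 1.1e-08), but its proportion in NPCs was only 0.001. Mid1 was the one that fell (Log2FC -0.94, adjusted p = 0.0026).

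At the X-inactivation center, Xist fell and its antisense partner rose. Xist (chrX:103460366-103483254, minus strand) was measured at 3569 and 3634 in X-GFP–medium against 1652 and 1357 in X-GFP–high (Log2FC -1.27 ± 0.07 (SE), adjusted p = 2.2e-09), after a mean of 6029 in X-GFP–negative cells and against 792 in ESCs. X-GFP–high cells therefore retained more Xist than ESCs, in both libraries. Its allele-specific reads came from X mus in both populations (proportions 0.996 and 0.995). Tsix (chrX:103431517-103484957, plus strand) stood at 146 and 161 in X-GFP–medium against 473 and 564 in X-GFP–high (Log2FC 1.74 ± 0.12 (SE), adjusted p = 7.8e-09). Tsx, a testis-expressed gene next to it, stood at 33.6 and 47.5 in X-GFP–medium against 143 and 181 in X-GFP–high (Log2FC 1.99 ± 0.20 (SE), adjusted p = 6.9e-07). Because Xist and Tsix overlap on opposite strands, some reads of 1 could be counted for the other if strand was not used. Tsix is truncated on X mus, where nearly all allele-specific Xist reads arose, and no X mus proportion was available for Tsix. A link between the fall of Xist and the rise of Tsix was not tested. Of 9 tested genes of the center, 4 were higher and 4 lower, 1 of the latter with a mean of at most 10 in X-GFP–high. Leaving that gene out gave 4 higher and 3 lower of 8. Chic1 was among those that rose (Log2FC 0.68). Ftx, a noncoding activator of Xist, and Rlim, a ubiquitin ligase gene that activates Xist, fell (Log2FC -0.55 and -0.30). Of 23 tested genes for silencing factors of the inactive X, 14 were higher and 5 lower, none by 2-fold, with a median Log2FC of 0.15. Ciz1, which anchors Xist RNA in the nucleus, fell most (953 and 1002 in X-GFP–medium against 583 and 577 in X-GFP–high, Log2FC -0.75, adjusted p = 5.0e-07). H2afy2, a macroH2A variant gene, rose (Log2FC 0.58, adjusted p = 3.4e-04). Spen, the main silencing cofactor of Xist, stood at 1646 and 1573 in X-GFP–medium against 1881 and 1681 in X-GFP–high (Log2FC 0.14, adjusted p = 0.074).

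X-linked genes known from pluripotent cells and testis rose. Of 15 that were tested, out of 26 listed, 13 were higher and none lower, 11 of them by at least 2-fold, with a median Log2FC of 1.81 beside 0.32 for all tested X-linked genes. Without the 5 that had a mean of at most 10 in X-GFP–medium, 8 of 10 were higher, 6 by at least 2-fold. The median Log2FC of these 10 was lower than 1.81. It was also below the 1.75 of the germline and meiosis genes, described below. Nr0b1, which encodes the pluripotency cofactor DAX1 (chrX:86191764-86195947, mm10), stood at 379.5 and 402 in X-GFP–medium against 1239 and 1519 in X-GFP–high (Log2FC 1.81 ± 0.09 (SE), adjusted p = 4.5e-10). Rhox5, a reproductive homeobox gene, stood at 623 and 601 in X-GFP–medium against 1951 and 1871 in X-GFP–high (Log2FC 1.64 ± 0.07 (SE), adjusted p = 6.5e-11). Xlr3a and Fthl17f, members of multicopy families whose reads can be shared among copies, rose as well (Log2FC 2.35, adjusted p = 5.9e-08 and Log2FC 2.27, adjusted p = 1.3e-07), whereas Rhox6 and Rhox9 did not pass the test (adjusted p = 0.74 and 0.98). Among X-linked genes with a mean of at least 100 in 1 population, the increases next to Usp26, 1700013H16Rik and Efhc2 were led by Fmr1nb, a testis antigen gene (152 and 153 in X-GFP–medium against 935 and 1051 in X-GFP–high, Log2FC 2.69, adjusted p = 3.7e-11). Nr0b1 drew a proportion of 0.095 of its allele-specific reads from X mus in X-GFP–medium against 0.227 in X-GFP–high, with 0.223 in ESCs. Most of its reads thus came from X cas, in ESCs as well, while its total level rose 3.53-fold from X-GFP–medium to X-GFP–high. The largest decreases among such genes were in the basement membrane collagen genes Col4a6 (123 and 148 in X-GFP–medium against 42.3 and 27.8 in X-GFP–high) and Col4a5 (Log2FC -1.35), in Fndc3c1 (Log2FC -1.70) and in Sh3kbp1, a receptor endocytosis adaptor gene (Log2FC -1.38).

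Naive pluripotency genes rose in X-GFP–high almost without exception. Of 18 factors, 16 were higher and 1 lower, 7 of them at least 2-fold higher, with a median Log2FC of 0.81. Nr0b1, described above among X-linked genes, is on this list too. Zfp42, which encodes the naive marker REX1 (chr8:43295063-43306980, minus strand), was measured at 4301 and 4808 in X-GFP–medium against 11186 and 12537 in X-GFP–high (Log2FC 1.38 ± 0.06 (SE), adjusted p = 1.2e-10). Tcl1, an AKT coactivator gene, stood at 789 and 819 in X-GFP–medium against 2467 and 2721 in X-GFP–high (Log2FC 1.69 ± 0.07 (SE), adjusted p = 4.9e-11). Klf5, a Krüppel-like factor gene, stood at 622 and 603 in X-GFP–medium against 1554 and 1722 in X-GFP–high (Log2FC 1.42 ± 0.07 (SE), adjusted p = 5.0e-10). The populations were apart by more than the replicate spread in each. Nanog, the core homeobox factor gene whose promoter drives the second reporter, rose less, with 7922 and 7714 in X-GFP–medium against 12268 and 11903 in X-GFP–high (Log2FC 0.63 ± 0.05 (SE), adjusted p = 1.7e-08), and Esrrb, Prdm14 and Sall4 rose by Log2FC 0.79, 0.83 and 0.24. Pou5f1, which encodes OCT4, was the one factor that fell (22692 and 22808 in X-GFP–medium against 20705 and 20560.4 in X-GFP–high, Log2FC -0.14 ± 0.04 (SE), adjusted p = 0.0099), and Tfap2c did not pass the test (Log2FC -0.01, adjusted p = 0.9). With 1 spread estimated over all 24 libraries, the values of Pou5f1 and Sall4 no longer passed the test. Reads of Pou5f1, Sox2, Klf4 and Myc can also come from the MKOS cassette.

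Markers of late reprogramming followed the same direction. Of 18, 15 were higher and 1 lower, 3 by at least 2-fold, with a median Log2FC of 0.66. With 1 spread estimated over all 24 libraries, 9 of the 18 were called higher, and Dppa4 and Epcam, given next, did not pass. Dppa5a, which encodes an RNA-binding protein of naive cells, stood at 13762 and 14135 in X-GFP–medium against 34547 and 36471 in X-GFP–high (Log2FC 1.35 ± 0.05 (SE), adjusted p = 2.4e-11). Dppa4, a chromatin protein gene, stood at 1175 and 1232 in X-GFP–medium against 1908 and 2122 in X-GFP–high (Log2FC 0.74 ± 0.07 (SE), adjusted p = 1.7e-07). Dppa3, the gene of the maternal factor STELLA, did not pass the test, at 1256 and 1234 in X-GFP–medium against 1256 and 1178 in X-GFP–high (adjusted p = 0.69). The epithelial antigen gene Epcam fell (6011 and 5639.8 in X-GFP–medium against 4938 and 4561 in X-GFP–high, Log2FC -0.29, adjusted p = 2.3e-04). Formative and primed genes, which mark the step after naive pluripotency, were divided: 11 of 19 were higher and 6 lower (median Log2FC 0.40; 0.65 and 0.16 without X-GFP–high replicates 1 and 2). Foxd3, a transcription factor gene, stood at 279.7 and 282 in X-GFP–medium against 802 and 769.6 in X-GFP–high (Log2FC 1.48, adjusted p = 2.2e-09). Lefty2, a NODAL antagonist gene, stood at 4992 and 5400.3 in X-GFP–medium against 9975 and 11673 in X-GFP–high (Log2FC 1.06, adjusted p = 2.8e-09). In the other direction, Lef1, a WNT effector gene, stood at 1015 and 963 in X-GFP–medium against 448 and 492 in X-GFP–high (Log2FC -1.07, adjusted p = 2.7e-08). Etv4 (Log2FC -0.59, adjusted p = 1.1e-05) and Dnmt3a (Log2FC -0.54, adjusted p = 4.6e-07) fell as well. The primed marker Fgf5 fell to 15.5 and 22.4 in X-GFP–high from 46.5 and 65.1 in X-GFP–medium (Log2FC -1.51, adjusted p = 2.9e-04).

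**Figure D3:**
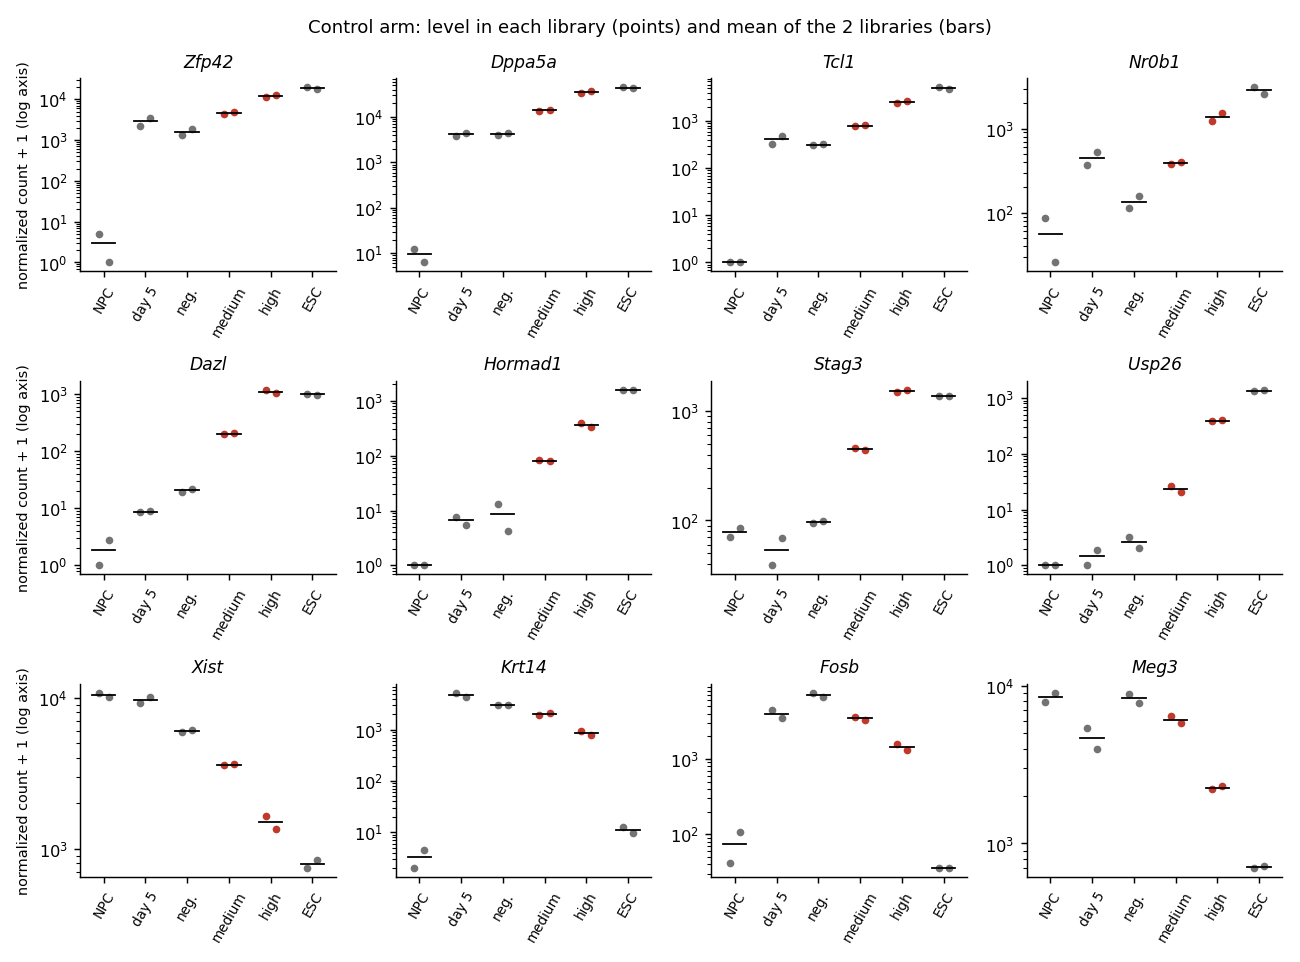
Normalized count + 1 (log axis) of 12 genes in each control-arm library, with the mean of the 2 libraries as a bar; X-GFP–medium and X-GFP–high are red. Dazl goes from 197 and 208 to 1175 and 1042 between these populations and then lies near ESCs, Hormad1 stays below ESCs, and Xist, Krt14, Fosb and Meg3 fall and stay above ESCs.

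Germline and meiosis genes rose in X-GFP–high. Of 29 tested, 26 were higher and none lower, and 23 rose by at least 2-fold, against 5.17% of all genes, with a median Log2FC of 1.75. Without the 2 that had a mean of at most 10 in X-GFP–medium, 24 of 27 were higher, 21 by at least 2-fold. Zfp42, described above among the naive factors, is counted here as well. Smc1b, the meiotic cohesin subunit gene, stood at 137 and 163 in X-GFP–medium against 984 and 1167 in X-GFP–high (Log2FC 2.83 ± 0.11 (SE), adjusted p = 4.9e-11). Dazl, an RNA-binding germ cell gene, stood at 197 and 208 in X-GFP–medium against 1175 and 1042 in X-GFP–high (Log2FC 2.45 ± 0.09 (SE), adjusted p = 4.2e-11). Both were low in X-GFP–negative cells, with means of 13.5 and 19.5, and Dazl was in X-GFP–high as high as in ESCs (mean 983). The chromosome axis gene Hormad1 stood at 82.0 and 78.5 in X-GFP–medium against 391 and 331 in X-GFP–high (Log2FC 2.15, adjusted p = 4.2e-09) and reached 1556 in ESCs. Stag3, the meiotic cohesin regulator gene, stood at 461 and 443 in X-GFP–medium against 1505 and 1556 in X-GFP–high (Log2FC 1.76, adjusted p = 6.5e-11). Stk31, a testis kinase gene, stood at 54.4 and 64.0 in X-GFP–medium against 268 and 303 in X-GFP–high (Log2FC 2.25, adjusted p = 8.4e-09). Mael, a piRNA pathway gene, stood at 31.6 and 44.4 in X-GFP–medium against 210.4 and 193 in X-GFP–high (Log2FC 2.40, adjusted p = 4.8e-08). The synaptonemal complex gene Sycp3 rose by Log2FC 1.74. Rec8, another meiotic cohesin gene, did not pass the test (162 and 179 in X-GFP–medium against 181 and 173 in X-GFP–high, Log2FC 0.06, adjusted p = 0.73), nor did Tex101 or Tdrd1 (adjusted p = 0.19 and 0.42).

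Promoters of this group are shown because many of them carry the E-box CACGTG, the sequence bound by MAX with its partners. The windows run from 250 bases before to 50 bases after the start of the gene, are taken from RefSeq (build GRCm38.p6), read 5′ to 3′ on the strand of the gene, and have each E-box in capitals. Stk31, Mael and Stag3 hold 1 E-box, Hormad1 holds 2, and Dazl is shown as a member that rose with none.
Hormad1, chr3:95559427-95559726, plus strand: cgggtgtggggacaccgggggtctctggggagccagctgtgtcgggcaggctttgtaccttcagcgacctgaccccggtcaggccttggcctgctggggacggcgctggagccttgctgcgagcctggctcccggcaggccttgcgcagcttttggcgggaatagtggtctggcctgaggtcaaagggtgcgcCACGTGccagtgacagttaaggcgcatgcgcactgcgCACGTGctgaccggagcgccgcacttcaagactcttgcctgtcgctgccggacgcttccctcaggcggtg
Stk31, chr6:49395289-49395588, plus strand: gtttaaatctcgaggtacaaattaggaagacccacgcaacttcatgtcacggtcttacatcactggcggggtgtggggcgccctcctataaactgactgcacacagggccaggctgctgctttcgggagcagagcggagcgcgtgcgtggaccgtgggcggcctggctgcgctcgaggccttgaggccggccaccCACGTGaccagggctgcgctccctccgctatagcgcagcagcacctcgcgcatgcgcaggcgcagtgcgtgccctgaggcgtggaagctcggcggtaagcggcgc
Mael, chr1:166238695-166238994, minus strand: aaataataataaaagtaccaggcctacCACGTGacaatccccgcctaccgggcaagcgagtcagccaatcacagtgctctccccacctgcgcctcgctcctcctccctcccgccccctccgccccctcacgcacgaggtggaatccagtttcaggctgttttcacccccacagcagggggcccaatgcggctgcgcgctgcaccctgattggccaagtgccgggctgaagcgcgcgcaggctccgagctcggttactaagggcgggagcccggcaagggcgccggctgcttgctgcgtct
Stag3, chr5:138280259-138280558, plus strand: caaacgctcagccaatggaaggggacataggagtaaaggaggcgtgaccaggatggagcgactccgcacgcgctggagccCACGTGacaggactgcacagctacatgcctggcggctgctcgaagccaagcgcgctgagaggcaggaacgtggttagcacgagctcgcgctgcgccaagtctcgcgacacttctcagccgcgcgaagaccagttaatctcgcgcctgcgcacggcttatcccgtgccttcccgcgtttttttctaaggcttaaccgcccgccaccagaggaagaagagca
Dazl, chr17:50293571-50293870, minus strand: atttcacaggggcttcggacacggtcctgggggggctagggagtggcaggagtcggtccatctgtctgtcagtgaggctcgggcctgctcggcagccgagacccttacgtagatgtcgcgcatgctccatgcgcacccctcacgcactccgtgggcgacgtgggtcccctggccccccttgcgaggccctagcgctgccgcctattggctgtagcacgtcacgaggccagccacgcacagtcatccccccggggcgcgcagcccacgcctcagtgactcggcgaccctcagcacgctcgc

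The E-box, which reads the same on both strands, was found in at least 1 window of 14 of the 28 listed germline genes with a RefSeq window (50%), in 7.15% of all 32851 windows, and in 11.6% of the 11116 tested genes with a window. On the other lists the share ran from 0% to 33.3%, the highest being 5 of 15 genes of DNA methylation enzymes. Germline members with and without the E-box had similar values. The 14 tested germline genes with the E-box had a median Log2FC of 1.69, with 13 of them higher, and the 13 without it had a median of 1.87, with 11 higher. Over all tested genes with a window, 4.67% of the 1285 with the E-box were called and at least 2-fold higher, and 4.74% of the 9831 without it.

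Enzymes of DNA methylation moved in both directions. Of 18, 7 were higher and 6 lower, with a median Log2FC of 0.05. Tet1, a 5-methylcytosine oxidase gene, was the one that rose by 2-fold (6483 and 6749.8 in X-GFP–medium against 13278 and 13593 in X-GFP–high, Log2FC 1.02 ± 0.05 (SE), adjusted p = 1.3e-10). Tet2 did not pass the test (7945 and 8258 in X-GFP–medium against 7628 and 7789 in X-GFP–high, Log2FC -0.07 ± 0.05 (SE), adjusted p = 0.2), and Tet3 fell (543 and 529.7 in X-GFP–medium against 444 and 386 in X-GFP–high, Log2FC -0.37 ± 0.09 (SE), adjusted p = 0.0032). Uhrf1, which directs maintenance methylation, rose (Log2FC 0.80, adjusted p = 9.7e-09), as did Dnmt3l (Log2FC 0.71, adjusted p = 2.4e-08) and Dnmt3b (Log2FC 0.61, adjusted p = 8.4e-07). The demethylation-linked genes Gadd45g and Gadd45a fell (Log2FC -0.74, adjusted p = 7.2e-05 and Log2FC -0.32, adjusted p = 0.0074), but Gadd45a did not pass with 1 spread over all 24 libraries or without X-GFP–medium replicate 1 (Log2FC -0.19). Polycomb and H3K27 enzyme genes were higher in 15 and lower in 6 of 29, none by 2-fold (median Log2FC 0.22), and without X-GFP–high replicate 2 in 14 and 9 (median 0.10). Mtf2 (Log2FC 0.72, adjusted p = 6.0e-09), Epop (Log2FC 0.62, adjusted p = 3.5e-07) and Eed (Log2FC 0.61, adjusted p = 8.6e-08), parts of Polycomb repressive complex 2, rose. Pcgf5 (Log2FC -0.46, adjusted p = 9.0e-05), the subunit of the complex that acts in Xist-dependent silencing, fell, as did Yaf2 (Log2FC -0.48, adjusted p = 0.0023).

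Targets and feedback genes of ERK signaling, which opposes the naive state, fell in X-GFP–high. Of 28 tested, 24 were lower and 3 higher, 5 of them at least 2-fold lower, with a median Log2FC of -0.61. Without the 1 that had a mean of at most 10 in X-GFP–high, 23 of 27 were lower. The AP-1 subunit gene Fosl2 stood at 1637 and 1386 in X-GFP–medium against 643 and 531 in X-GFP–high (Log2FC -1.36 ± 0.10 (SE), adjusted p = 1.2e-08). Fosb stood at 3641 and 3285 in X-GFP–medium against 1565 and 1314 in X-GFP–high (Log2FC -1.27 ± 0.08 (SE), adjusted p = 2.5e-09). The other AP-1 genes on the list, Fos, Fosl1, Jun and Junb, fell by Log2FC values of -0.77, -1.23, -0.78 and -0.74. Dusp6 and Spry4, feedback inhibitors, fell (Log2FC -0.23 and -0.62), as did the receptor gene Egfr (Log2FC -0.96, adjusted p = 1.0e-07), and Spry1 rose (421 and 421 in X-GFP–medium against 571 and 595 in X-GFP–high, Log2FC 0.47, adjusted p = 2.3e-04). The immediate early gene Ier2 was slightly higher (Log2FC 0.17, adjusted p = 0.022), a call that was lost without X-GFP–medium replicate 2 (Log2FC 0.12) and over all 24 libraries. In ESCs the means were 34.3 for Fosb and 77.8 for Egfr. The LIF and STAT3 pathway, which sustains the naive state, was divided, with 5 of 16 higher and 6 lower (median Log2FC -0.05). Both LIF receptor chains rose, Lifr at 2576 and 2702 in X-GFP–medium against 3849 and 3955 in X-GFP–high (Log2FC 0.56 ± 0.05 (SE), adjusted p = 2.7e-07). Il6st stood at 2454 and 2524 in X-GFP–medium against 3272 and 3464 in X-GFP–high (Log2FC 0.44 ± 0.05 (SE), adjusted p = 5.6e-06), as did the kinase genes Pim3 and Pim1 (Log2FC 0.64 and 0.54). Stat3 itself fell slightly (3362 and 3302 in X-GFP–medium against 2980.1 and 2902 in X-GFP–high, Log2FC -0.18 ± 0.05 (SE), adjusted p = 0.0078). Jak2 fell (Log2FC -0.81, adjusted p = 2.5e-07), and so did Osmr, the oncostatin M receptor gene (188 and 227 in X-GFP–medium against 69.1 and 69.4 in X-GFP–high, Log2FC -1.56, adjusted p = 5.0e-07). Fut9, the fucosyltransferase gene behind the SSEA1 antigen on which all day 7 cells were enriched, stood at 1247 and 1406 in X-GFP–medium against 1565 and 1486 in X-GFP–high (Log2FC 0.20 ± 0.07 (SE), adjusted p = 0.021), and did not pass without X-GFP–medium replicate 1 (Log2FC 0.12) or over all 24 libraries.

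Genes of other identities fell. Keratinocyte and epidermal genes were lower in 19 of 20 and higher in none, 12 by at least 2-fold against 6.13% of all genes, with a median Log2FC of -1.12. Krt13 stood at 580.1 and 642 in X-GFP–medium against 209 and 215 in X-GFP–high (Log2FC -1.52 ± 0.10 (SE), adjusted p = 6.0e-09). Lgals7 stood at 718 and 760.0 in X-GFP–medium against 272 and 254 in X-GFP–high (Log2FC -1.49 ± 0.09 (SE), adjusted p = 3.2e-09). Krt14, the basal keratin gene, stood at 1973 and 2136 in X-GFP–medium against 931 and 798 in X-GFP–high (Log2FC -1.25, adjusted p = 3.1e-09), with 3081 in X-GFP–negative cells and 10.2 in ESCs. Epithelial genes were lower in 19 of 20 (median Log2FC -0.69), or in 13 of 20 with 1 spread estimated over all 24 libraries. Krt8 stood at 17368 and 16554 in X-GFP–medium against 7520.5 and 5869.7 in X-GFP–high (Log2FC -1.35 ± 0.08 (SE), adjusted p = 1.9e-09). Krt19 stood at 4682 and 4191 in X-GFP–medium against 2064 and 1518 in X-GFP–high (Log2FC -1.32, adjusted p = 2.5e-08), while the E-cadherin gene Cdh1 fell only slightly, with 15190.3 and 15622 in X-GFP–medium against 13416 and 13048 in X-GFP–high (Log2FC -0.22, adjusted p = 5.3e-04). Grhl2, an epithelial transcription factor gene, was the exception (421 and 402 in X-GFP–medium against 727 and 696 in X-GFP–high, Log2FC 0.79, adjusted p = 1.0e-06).

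Mesenchymal genes fell in 16 of 25 and rose in 5 (median Log2FC -0.74). Without X-GFP–high replicate 2 the counts were 14 and 6 with a median of -0.49, and without the 1 lower gene that had a mean of at most 10 in X-GFP–high they were 15 and 5 of 24. Cd44, a hyaluronan receptor gene, stood at 1961 and 2042 in X-GFP–medium against 703 and 665 in X-GFP–high (Log2FC -1.55 ± 0.07 (SE), adjusted p = 8.9e-11). S100a4 stood at 139 and 152 in X-GFP–medium against 52.6 and 47.0 in X-GFP–high (Log2FC -1.53, adjusted p = 2.0e-06). In contrast, Zeb1, a repressor of epithelial genes, rose (138 and 159 in X-GFP–medium against 288 and 346 in X-GFP–high, Log2FC 1.08, adjusted p = 3.7e-06). So did Vim, the vimentin gene (262 and 275 in X-GFP–medium against 439 and 492 in X-GFP–high, Log2FC 0.79, adjusted p = 6.9e-06). Of 17 tested embryonic fibroblast markers, 8 were lower and 3 higher (median Log2FC -0.58), or 8 and 2 of 16 without the 1 that had a mean of at most 10 in X-GFP–medium. Col6a1 stood at 379.5 and 487 in X-GFP–medium against 125 and 126 in X-GFP–high (Log2FC -1.77, adjusted p = 2.1e-08). Col1a2 stood at 199 and 129 in X-GFP–medium against 60.8 and 63.0 in X-GFP–high (Log2FC -1.36, adjusted p = 2.2e-05). Col5a1 stood at 818 and 774 in X-GFP–medium against 988 and 987 in X-GFP–high (Log2FC 0.31, adjusted p = 0.0016). Pdgfrb, a receptor gene of stromal cells, was higher (Log2FC 0.55, adjusted p = 0.007) but did not pass without X-GFP–medium replicate 1 (Log2FC 0.33). The 20 fibroblast markers summed to 16032 and 17088 in X-GFP–medium against 9120 and 10636 in X-GFP–high, with 4231 and 4251 in ESCs, while the Y-linked genes of the feeders summed to at most 4.27 in each of the 4 libraries. Neural progenitor and glial genes were lower in 10 and higher in 2 of 16 tested (median Log2FC -0.71). With no filter on low values the counts were the same over all 26 listed, with a median of -0.25, and without the 2 lower genes that had a mean of at most 10 in X-GFP–high they were 8 and 2 of 14. Nes, the nestin gene of the starting NPCs, stood at 2857 and 3136 in X-GFP–medium against 1552 and 1493 in X-GFP–high (Log2FC -0.97, adjusted p = 4.0e-09). Cspg4 stood at 552 and 573 in X-GFP–medium against 185 and 187 in X-GFP–high (Log2FC -1.59, adjusted p = 3.9e-09). Slc1a3, a glial glutamate transporter gene, stood at 328 and 352 in X-GFP–medium against 500.1 and 528 in X-GFP–high (Log2FC 0.60, adjusted p = 5.3e-05).

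**Figure D4:**
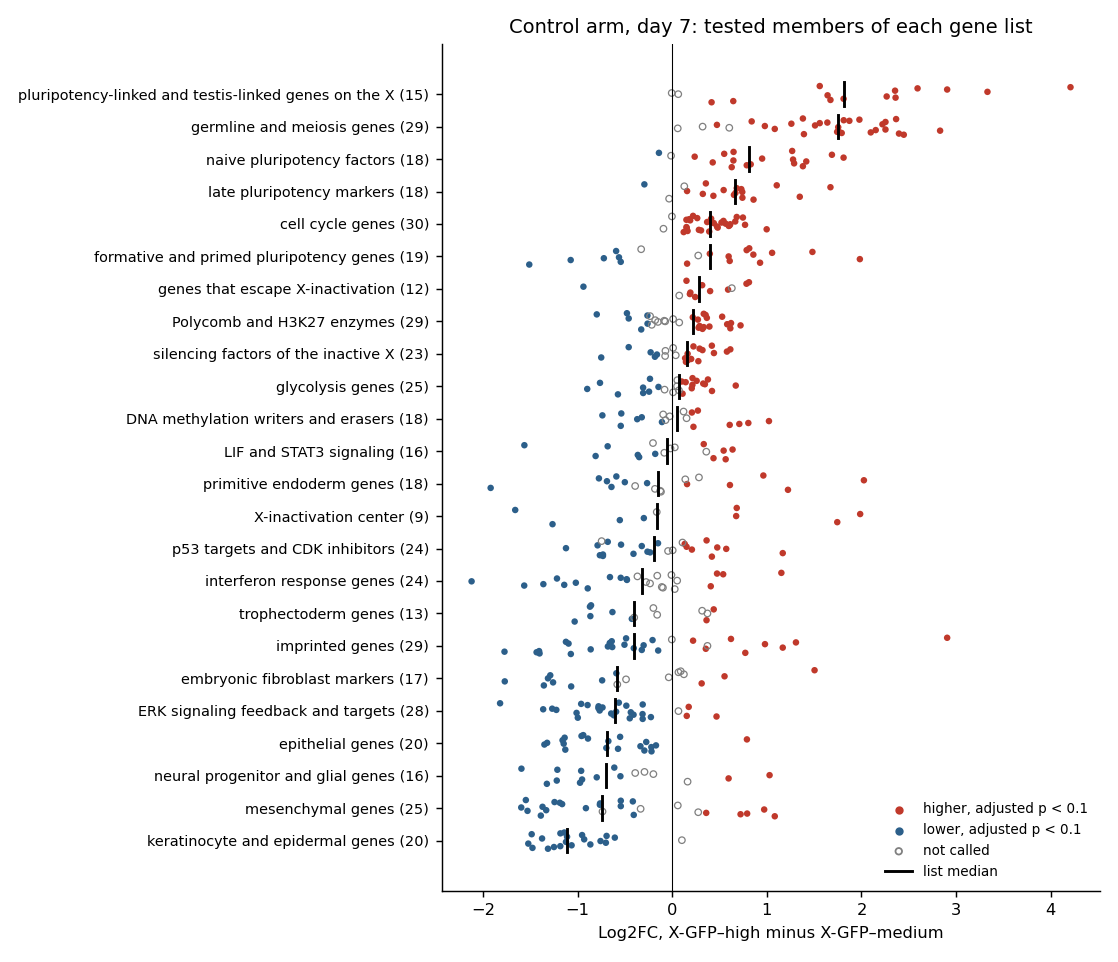
Log2FC (X-GFP–high minus X-GFP–medium, control arm) of each tested member of 24 gene lists, with the number tested in brackets, filled points for called members and a bar for the list median. Medians run from -1.12 for keratinocyte and epidermal genes to 1.81 for pluripotency-linked and testis-linked genes on the X. Without its 5 members with a mean of at most 10 in X-GFP–medium, the median of the latter list falls below the 1.75 of germline and meiosis genes. The list of two-cell-stage genes, with 1 tested member, is not drawn.

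Extraembryonic lists were mixed. Primitive endoderm genes were higher in 5 and lower in 7 of 18 (median Log2FC -0.16), and 1 of those higher had a mean of at most 10 in X-GFP–medium. Leaving that gene out gave 4 higher and 7 lower of 17. Hnf4a, a nuclear receptor gene, rose (30.6 and 45.4 in X-GFP–medium against 144 and 167 in X-GFP–high, Log2FC 2.03, adjusted p = 6.5e-07). So did Apoe, the apolipoprotein E gene (7831 and 7939 in X-GFP–medium against 14669 and 16102 in X-GFP–high, Log2FC 0.96, adjusted p = 5.7e-10). Foxa2 stood at 106 and 129 in X-GFP–medium against 25.8 and 35.2 in X-GFP–high, and Fst fell as well (Log2FC -0.78, adjusted p = 6.6e-05). The defining factor genes Gata6 and Gata4 did not pass the test (adjusted p = 0.56 and 0.34). Of 13 tested trophectoderm genes 2 were higher, Elf3 and Eomes (Log2FC 0.44, adjusted p = 2.4e-04 and Log2FC 0.36, adjusted p = 0.013), and 6 lower, led by Elf5 and Id2 (Log2FC -1.03, adjusted p = 7.6e-04 and Log2FC -0.87, adjusted p = 5.3e-05). Over all 24 libraries in 1 fit, Elf3, Eomes and Elf5 did not pass. Only 1 of 19 two-cell-stage genes had a mean above 10: Usp17le (11.9 and 10.3 in X-GFP–medium against 20.6 and 26.7 in X-GFP–high, Log2FC 1.02, adjusted p = 0.02).

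Imprinted genes, expressed from 1 parental allele, fell more often than they rose, with 19 of 29 lower, 7 by at least 2-fold, and 8 higher (median Log2FC -0.41). Without the 1 that had a mean of at most 10 in X-GFP–medium, 19 of 28 were lower and 7 higher (median -0.45). All 3 tested genes of the Dlk1-Meg3 domain fell: the noncoding Meg3 stood at 6398 and 5828 in X-GFP–medium against 2201 and 2319 in X-GFP–high (Log2FC -1.43 ± 0.06 (SE), adjusted p = 4.9e-11). Dlk1 stood at 219 and 198 in X-GFP–medium against 57.7 and 63.0 in X-GFP–high (Log2FC -1.77 ± 0.16 (SE), adjusted p = 1.3e-07). Rtl1, which overlaps an antisense RNA, stood at 712 and 824 in X-GFP–medium against 283 and 294 in X-GFP–high (Log2FC -1.41, adjusted p = 8.4e-09). H19 and Igf2, neighbors under 1 imprinting control region, fell together (Log2FC -1.07, adjusted p = 5.3e-08 and Log2FC -1.40, adjusted p = 1.0e-10). The largest increase on the list was in Xlr3b, a multicopy X-linked gene whose lower mean was at most 10 (values of 7.91 and 7.23 in X-GFP–medium against 79.4 and 50.2 in X-GFP–high). Usp29, a paternally expressed gene of the Peg3 domain, rose as well (Log2FC 1.31, adjusted p = 5.4e-05). Cdkn1c, a cell cycle inhibitor gene, and Grb10, a growth factor receptor adaptor gene, rose (Log2FC 1.17, adjusted p = 2.9e-05 and Log2FC 0.98, adjusted p = 3.0e-05). Interferon response genes were lower in 11 and higher in 4 of 24 in these cells that had received no IFNγ (median Log2FC -0.32). Psmb8 and Gbp2, a guanylate-binding protein gene (346 and 293 in X-GFP–medium against 107 and 107 in X-GFP–high, Log2FC -1.56, adjusted p = 8.3e-08), fell most. B2m, the MHC class I light chain gene, fell from 3834 and 3538 in X-GFP–medium to 1737 and 1441 in X-GFP–high (Log2FC -1.22, adjusted p = 3.2e-09). Irf1 did not pass the test (adjusted p = 0.79), and Ifitm3 and Ifitm1, which are also expressed in germ cells, rose (Log2FC 1.15, adjusted p = 7.8e-08 and Log2FC 0.54, adjusted p = 9.3e-05).

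Cell cycle genes rose together but modestly: 28 of 30 were higher, none lower and none by 2-fold (median Log2FC 0.40). Ccne1, the cyclin E1 gene of the G1/S transition, stood at 967 and 1044 in X-GFP–medium against 1906 and 2113 in X-GFP–high (Log2FC 1.00 ± 0.07 (SE), adjusted p = 1.2e-08), just under 2-fold. Mcm3, a replication licensing gene, stood at 5998 and 6475 in X-GFP–medium against 10195 and 11067 in X-GFP–high (Log2FC 0.77, adjusted p = 1.1e-08). The mitotic genes Plk1 and Mki67 moved less (Log2FC 0.18 and 0.12). Among p53 targets and CDK inhibitors 12 of 24 were lower and 8 higher (median Log2FC -0.19), or 11 and 8 without X-GFP–high replicate 2 (median -0.08). Perp, a gene of cell junctions that is also on the keratinocyte list, fell most (8940.2 and 8645 in X-GFP–medium against 4659 and 3494 in X-GFP–high, Log2FC -1.12, adjusted p = 4.1e-08). Cdkn1a, which encodes p21, fell (5737 and 5394 in X-GFP–medium against 3561 and 3146 in X-GFP–high, Log2FC -0.73, adjusted p = 6.8e-08), as did the antiproliferative gene Btg2 (Log2FC -0.79, adjusted p = 8.6e-08). Trp53 itself rose (Log2FC 0.42, adjusted p = 6.5e-06), as did Pmaip1, the gene of the proapoptotic protein NOXA (Log2FC 0.57, adjusted p = 1.7e-05). Glycolysis genes were higher in 12 and lower in 8 of 25 (median Log2FC 0.07), and in 5 and 5 with 1 spread over all 24 libraries. X-linked Pgk1 and Pfkp were the 2 that rose most (Log2FC 0.67, adjusted p = 3.0e-08 and Log2FC 0.42, adjusted p = 1.4e-05), and Pfkfb3 and Eno3 fell most (Log2FC -0.90, adjusted p = 1.8e-07 and Log2FC -0.76, adjusted p = 2.1e-05).

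In the IFNγ arm the same step, taken in 4 other libraries, was smaller in number of calls. Of 15624 genes tested there, 2655 were higher in X-GFP–high (17%) and 3099 lower (19.8%), with replicates that were further apart than in the control arm (chi-square per degree of freedom 13.7 for X-GFP–high and 9.80 for X-GFP–medium). Of the genes higher in the control arm, 43.0% were also called higher with IFNγ, which was 78.9% of the IFNγ list, and 103 were called lower. Of the genes lower in the control arm, 47.5% were also called lower, which was 77.6% of the IFNγ list, and 86 were called higher. For genes at least 2-fold higher or lower in the control arm the shares were 69.5% and 55.5%, or 70.1% of 795 and 67.8% of 779 that were tested in the IFNγ arm, with 1 and 2 genes called in the opposite direction. Germline genes, for example, were higher in 22 of 29 with a median Log2FC of 1.16, and keratinocyte genes were lower in 12 of 18 with a median of -1.05.

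The difference between the arms was tested directly. Of 15623 genes, 736 had a more positive high-minus-medium step with IFNγ (4.71%) and 1259 a more negative one (8.06%). The balance between the directions depended on the processing. The trimmed mean of M values gave 996 and 922, and the fit over all 24 libraries gave 505 and 560. Values rescaled to the same total gave 651 and 1271. The total of 1995 calls became 484 without X-GFP–high replicate 2 of the control arm, 1099 without its replicate 1, 507 and 733 without X-GFP–medium replicates 1 and 2 of the control arm, and 1114 without X-GFP–medium replicate 1 of the IFNγ arm. Naive pluripotency genes had a more negative step with IFNγ in 11 of 18 and a more positive one in 1, late markers in 11 of 18, and germline genes in 12 of 29. Zfp42 stood at 9438 and 10889.6 in X-GFP–medium against 15277 and 18949.8 in X-GFP–high with IFNγ (Log2FC 0.75 ± 0.12 (SE), adjusted p = 0.0043; difference -0.63 ± 0.15 (SE), adjusted p = 0.032), so that X-GFP–medium cells of the IFNγ arm lay just below X-GFP–high cells of the control arm. Lifr fell there instead of rising (6279.6 and 6381 in X-GFP–medium against 5342 and 5065 in X-GFP–high; Log2FC -0.28 ± 0.07 (SE), adjusted p = 0.019; difference -0.85 ± 0.08 (SE), adjusted p = 0.0027). Of 597 X-linked genes in this test, 98 were called in either direction, beside 1995 of all 15623 genes.

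Genes with the largest differences between the arms were of low to moderate level. Klb, the FGF coreceptor gene, was more negative with IFNγ (difference -1.81 ± 0.28 (SE), adjusted p = 0.0068). Zscan5b, a zinc-finger gene (difference -1.80 ± 0.29 (SE), adjusted p = 0.008), and Gm17657 (difference -1.73 ± 0.40 (SE), adjusted p = 0.03) followed. Zscan5b, for instance, stood at 19.8 and 18.6 in X-GFP–medium against 105 and 132 in X-GFP–high in the control arm and at 57.1 and 62.7 in X-GFP–medium against 104 and 101 in X-GFP–high with IFNγ. More positive with IFNγ were Thy1, a surface marker gene of fibroblasts and neurons that is lost in reprogramming (difference 2.13 ± 0.29 (SE), adjusted p = 0.0047), and Grip2 (difference 2.04 ± 0.39 (SE), adjusted p = 0.015). Next came Pak3, a kinase gene on the X (difference 1.85 ± 0.36 (SE), adjusted p = 0.015), and Zbtb16, a transcription factor gene (difference 1.78 ± 0.54 (SE), adjusted p = 0.074). Thy1 stood at 117 and 123 in X-GFP–medium against 106 and 128 in X-GFP–high in the control arm and at 48.1 and 47.1 in X-GFP–medium against 168 and 253 in X-GFP–high with IFNγ. For the X mus proportion the median went from 0.236 to 0.396 with IFNγ and from 0.110 to 0.335 in control, pooled values that have no test.

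**Figure D5:**
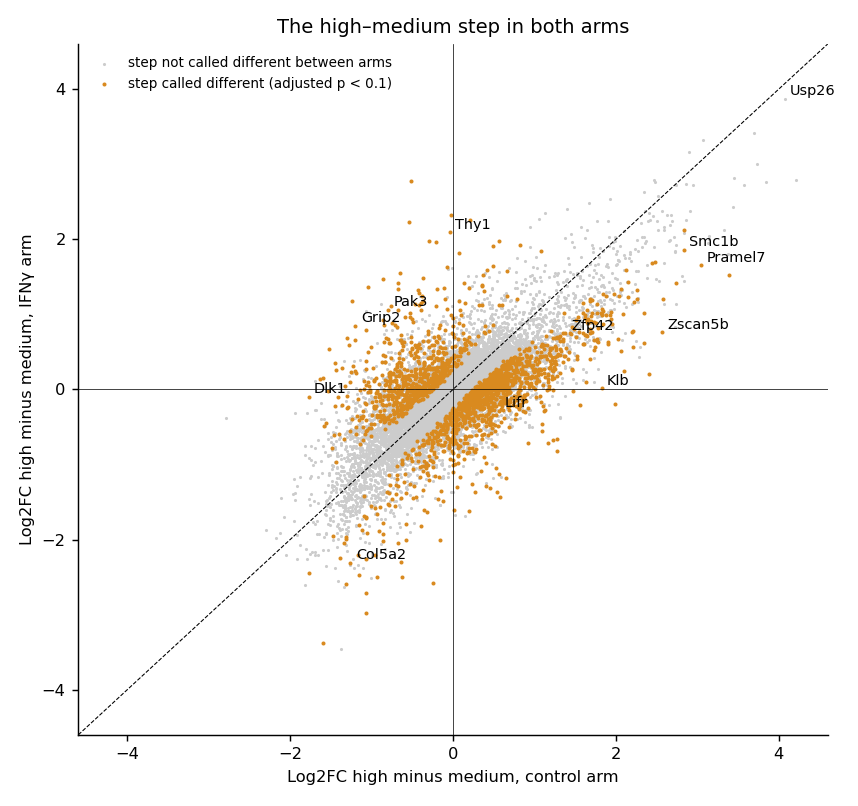
Log2FC of X-GFP–high minus X-GFP–medium in the control arm (horizontal) and in the IFNγ arm (vertical), 1 point per gene tested in all fits, with equality dashed; genes whose step was called different between the arms (736 more positive and 1259 more negative with IFNγ in all) are orange. Usp26 lies near the dashed line, while Klb and Zscan5b lie below it and Thy1, Grip2 and Pak3 above it.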

How the data were processed

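RNA of the sorted populations was measured by stranded, rRNA-depleted RNA sequencing. Per the labels and the study's methods, the authors aligned reads with STAR to mm10 masked at strain SNPs, counted genes with HTSeq 0.6.1 and normalized with DESeq2. The deposited normalized counts are a signal, reads divided by a size factor per library, and whole reads were recovered from their steps. The deposited X mus proportion is a fraction from 0 to 1, pooled per population. Groups came from the labels.

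Genes with a mean above 10 were tested on log2(normalized count + 1) with limma 3.58.1, two-sided, with Benjamini-Hochberg adjustment over all tested genes and a threshold of 0.1. edgeR 4.0.16 and DESeq2 1.42.0 on whole reads were alternatives. Named genes were markers chosen by name, the 8 largest increases and decreases at a mean of at least 100, up to 2 called genes each way per list, the 4 extremes in X mus proportion, in X-linked level and in the difference between arms. The gene set compared and the 25 lists were chosen with earlier results of these data known, and other list members were named after their values were seen. Some genes that the rule names are not reported here.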

Additional observations from a re-analysis of the deposited data

Results flagged for a closer look

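The step from X-GFP–medium to X-GFP–high was tested for a difference between the arms, and 736 genes were called more positive and 1259 more negative with IFNγ by limma. All genes in this paragraph were singled out because that difference passed the test, with values given as the Log2FC of the step with IFNγ minus that in the control arm. Among pluripotency genes the difference was -0.63 for Zfp42, -0.67 for Dppa4, -0.60 for Dppa5a, -0.53 for Esrrb and -0.25 for Sall4. It was -0.61 for Tet1 and -0.53 for Fut9. In the LIF pathway it was -0.28 for Stat3, -0.85 for Lifr and -0.55 for Il6st. Of the genes with the largest increases in the control arm it was -0.70 for Zfp600 and -1.39 for Pramel7, both of which have close paralogs. The largest negative differences reported here were -1.81 for Klb, -1.80 for Zscan5b and -1.73 for Gm17657. The largest positive ones were 1.78 for Zbtb16, 1.85 for Pak3, 2.04 for Grip2 and 2.13 for Thy1. Both populations of the IFNγ arm had replicates further apart than in the control arm, and the part of that spread in these differences was not tested. The 1995 calls became 1065 over all 24 libraries in 1 fit. Whether each gene named here stayed called under the alternatives is not given, which matters most for the small differences.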

How the results depend on the processing

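In the control arm, the numbers of genes higher and lower, in all and on the X, stayed within 1.5 times under every alternative, and the counts over all genes ran from 4082 to 4702 and from 4206 to 4919 when 1 library was left out. DESeq2 gave 3825 and 3929. Over 126 named genes, 1618 of 1638 values under the alternatives kept their direction and side of the threshold and none reversed. The 19 that fell short belonged to 13 genes, mostly in the fit over all 24 libraries, and Apln passed without X-GFP–medium replicate 1 (Log2FC 0.70). The median gain in X mus proportion was 0.185 to 0.193 under its alternatives.

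The number of genes whose step differed between the arms depended on the processing, and the cause was not tested. It was 1065 over all 24 libraries in 1 fit, with 505 more positive and 560 more negative with IFNγ. With no filter on low values it was 897, with 309 more positive and 588 more negative. DESeq2 gave 618 more positive and 780 more negative genes, and edgeR 898 and 991. When 1 library was left out, the total ran from 484 to 2610, with 155 to 1073 more positive and 329 to 1537 more negative. Scaling moved the share of more positive calls from 36.9% to 51.9% with the trimmed mean of M values and to 50.9% with that scaling on autosomal genes, an alternative chosen after seeing the data.

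The replicate numbers were not shown to pair the libraries, since 2 pairs are too few. Same-numbered libraries deviated together with a correlation across genes of 0.281 in the control arm and 0.563 in the IFNγ arm. With the replicate block the control arm gave 5245 higher and 5403 lower genes, the IFNγ arm 4135 higher, and the test between arms 4766, of which 1923 were more positive and 2843 more negative. The depth of the X mus proportions is unknown, which limits single genes. A library left alone in its population was assumed to vary like the others.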

Other observations

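The genes here were chosen after their values were seen. Psmb8 and Psmb9, neighboring genes for subunits of the immunoproteasome, had unlike values in the control arm, a difference that was not tested. Psmb9 stood at 17.8 and 19.6 in X-GFP–medium against 18.6 and 20.3 in X-GFP–high and did not pass the test (Log2FC 0.05, adjusted p = 0.9), while Psmb8 fell by 2.12 on the log2 scale.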
